A study of Sus scrofa with 6 samples.

Results

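The genes described here belong to the circadian clock, the feedback loop with which a cell keeps the time of day. Every probe set of the Affymetrix porcine array was taken whose single gene symbol in the array's probe table, or whose name in the study's additional tables, was PER1, PER2, CRY2, ARNTL, CLOCK, NR1D1 or NR1D2. The search found 5 of the 24123 probe sets, for 4 of the 7 genes, out of 6766 gene symbols in all: PER1 with 2 probe sets and PER2, CRY2 and ARNTL with 1 each. The name of the PER2 probe set comes from the additional tables, where it rests on a match to the human gene. By their captions, the tables that give such gene names list transcripts that differed between the breeds. The PER2 probe set may thus have entered through its breed difference. CLOCK, NR1D1 and NR1D2 were not analysed here. The genes were selected on their signals in the comparison of the breeds, seen beforehand, so their breed differences are given as a description, with no test.

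In the textbook loop, ARNTL (also called BMAL1) binds CLOCK, and the dimer switches on genes that carry an E-box, among them the PER and CRY genes. The PER and CRY proteins then enter the nucleus and repress the dimer, and this cycle returns about once a day. Granulosa, theca and luteal cells of the ovary run such a clock. PER1 is in addition known to be induced directly by cAMP signalling, the route of the LH receptor, and by glucocorticoids.

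Each of the 6 arrays held RNA of preovulatory follicles from 1 multiparous cycling sow, 3 Large White (LW) and 3 Chinese Taihu (TH; the breed is Chinese Erhualian in the labels, a strain of the Taihu group). All 6 sows received 1000 IU PMSG, which acts like FSH, and 500 IU hCG at 80 h after it, which acts on the LH receptor. They were killed 30 to 38 h after hCG, a window of 8 h. The LW sows came from one farm and the TH sows from another, so that breed and farm cannot be told apart, and the hour of the day at which a sow was killed is not given in the sources used here. Values are normalized signal intensities on a linear scale, and every log2 difference is TH minus LW, with the standard error (SE) of limma. In a whole follicle, fewer cells of a type and less RNA per cell cannot be told apart. The number of arrays limits the precision.

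By their summed signals, granulosa and theca markers were lower in TH sow 1 than on the other 5 of the 6 arrays. The summed signal of 10 granulosa markers was 2064 there and 11881 to 18449 elsewhere. INHA, FST, NR5A2, LHCGR and HSD17B1 had their lowest signal in TH sow 1. INHBA (899 against 233 to 387 elsewhere) and CYP19A1 (119 against 88.4 to 117) had their highest signal in this sow. Signals of INHBB, CYP19A1, FOXL2 and AMH were at most 175 on all 6 arrays. Of the theca markers, 6 were measured, and their sum was 699 in TH sow 1 and 7033 to 42832 elsewhere. The widest ranges in it were those of STAR (27.0 to 12624), CYP11A1 (63.9 to 13520) and HSD3B1 (90.6 to 10898). Whether this sum follows theca cells alone was not tested. The sum of 10 epithelium and oviduct markers was 46114 in TH sow 1 against 1926 to 8737 elsewhere. LW sow 3, with 8737, had the highest sum of its breed (1926 and 2142 in the other LW sows). LW sow 2 had the highest sum of 9 leukocyte markers, 21547 against 4001 to 7189. The 18 probe sets for hybridization spike-ins, which are added to every array at a fixed amount, lay at 0.952 to 1.07 times the LW mean in LW sows and at 1.29 to 1.44 times in TH sows. The 3 prime to 5 prime ratio of GAPDH, a measure of RNA integrity, was 1.21 to 1.60 in LW and 1.36 to 1.85 in TH sows, and its 3 prime to middle ratio was at most 1.02 in LW and 1.04 to 1.09 in TH sows. The part of these differences in the clock gene values was not tested.

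The signals of 3 repressors, PER1 (on 1 of its 2 probe sets), PER2 and CRY2, were higher in follicles of every TH sow than in those of any LW sow. That of the activator ARNTL overlapped between the breeds. Of the 5 probe sets, 3 did not overlap and were higher in TH sows, which was true of 3.98% of the 19196 tested probe sets (9.1% did not overlap in either direction). By limma, 0 of the 5 had an adjusted p below 0.05 (0.0208% of all tested) and 3, all higher in TH sows, had an unadjusted p of at most 0.05 (3.86% of all, 1.56% with TH higher); the methods' t-test gave 0 and 2 (4.41% of all at unadjusted p). Nothing is read from these counts, since the genes were proposed from the same contrast. The same limit applies to the median log2 difference, which was 0.81 over the 5 probe sets and 0.00 over all tested ones.

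PER2, a period protein that carries CRY proteins into the nucleus, had normalized signals of 115, 81.3 and 140 in LW sows 1 to 3 and 404, 166 and 376 in TH sows 1 to 3. TH sow 2 lay close to the LW sows, at 1.18 times the highest of them, and the other two TH sows lay well above. The breed means of 112 ± 29.6 (SD, n = 3) in LW and 315 ± 130 in TH differed 2.81-fold (log2 1.42, SE 0.40). Within TH sows the highest signal was 2.44 times the lowest, and within LW sows 1.72 times. Without TH sow 1 the log2 difference was 1.19 (SE 0.41), and with each array left out in turn it ran from 1.19 to 1.83.

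PER1, the other period gene, had signals of 822, 675 and 1070 in LW and 1850, 1141 and 1793 in TH sows on the first of its probe sets. Here too TH sow 2 was the lowest of its breed, and it exceeded LW sow 3 by a factor of 1.07. Mean signals were 856 ± 200 (SD, n = 3) and 1595 ± 394, which is 1.86 times as much in TH (log2 0.89, SE 0.28). The log2 difference was 0.77 (SE 0.32) without TH sow 1 and 0.73 to 1.12 with each array left out in turn.

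The second PER1 probe set did not follow. Its signals were 102, 89.7 and 86.5 in LW and 102, 100 and 94.3 in TH sows, and the breeds overlapped. Over the 6 arrays its highest signal was 1.18 times its lowest, against 2.74 times for the first. The log2 difference was 0.09 (SE 0.14), and averaging the 2 probe sets gave PER1 a difference of 0.49. Which of the 2 follows the PER1 transcript more closely was not tested.

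CRY2, a cryptochrome that blocks the ARNTL and CLOCK dimer, had signals of 204, 329 and 308 in LW and 471, 360 and 658 in TH sows. The lowest TH sow, again sow 2, exceeded the highest LW sow by a factor of 1.09. Thus the lowest TH signal was 1.07 to 1.18 times the highest LW signal for these 3 genes, and the same ratio was 1.20 for the spike-ins. The ratio of the breed means was 1.34 for the spike-ins, against 1.77 to 2.81 for the 3 genes. The spike-in value averages 18 probe sets on a log scale, while each gene value rests on 1, so these ratios are unlike measures. The arrays were normalized, with median signals of 173 to 185 in LW and 176 to 187 in TH sows. The part of the spike-in difference in the gene values was not tested. On average the CRY2 signal was 280 ± 66.9 (SD, n = 3) in LW and 496 ± 151 in TH, or 1.77-fold higher (log2 0.81, SE 0.30). Without TH sow 1 the difference was 0.82 (SE 0.36). It was smallest, 0.58, without TH sow 3, the sow with the highest CRY2 signal, and reached 1.02 without TH sow 2.

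ARNTL, the partner of CLOCK, had signals of 456, 626 and 695 in LW and 452, 303 and 692 in TH sows. The highest values of the breeds were nearly equal, and the lowest of the 6 came from TH sow 2. The TH mean, 482 ± 196 (SD, n = 3), was 0.814 times the LW mean of 592 ± 123 (log2 -0.36, SE 0.35), a difference about as large as its SE. It came down to -0.06 without TH sow 2 and was -0.66 without TH sow 3, so that single sows set its size.

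**Figure D1:**
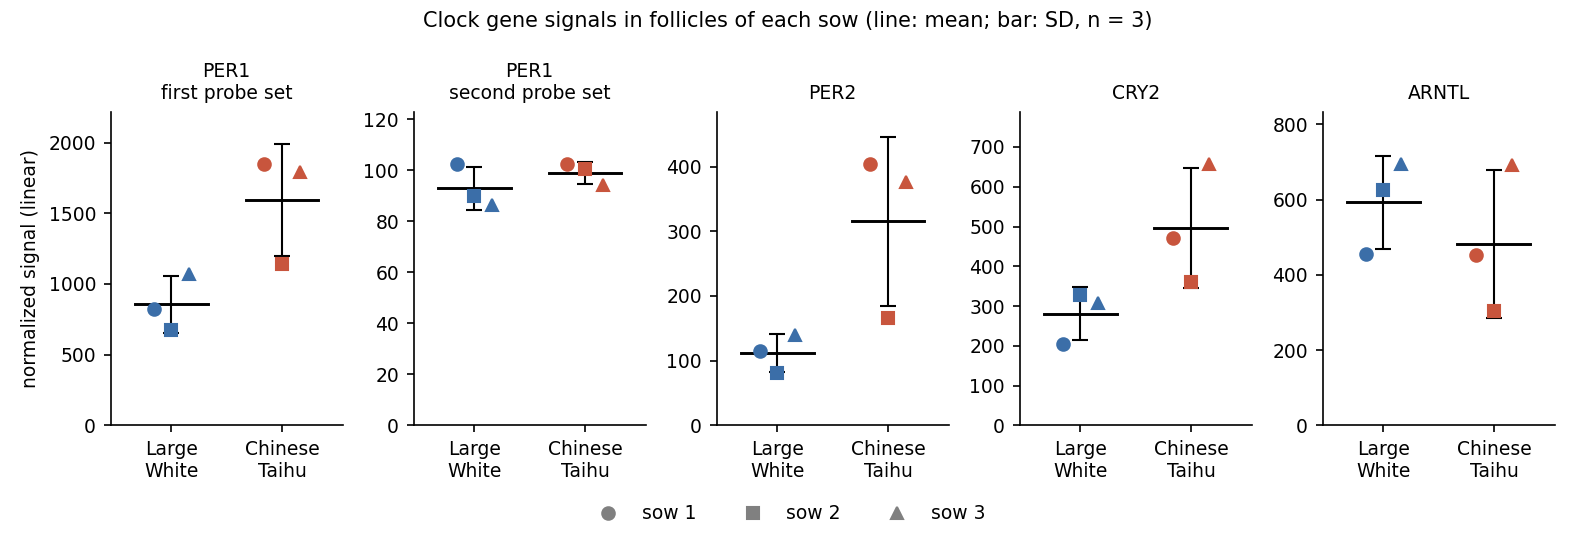
Normalized signal of the 5 clock probe sets on a linear axis, 1 panel each. Each point is 1 sow (3 LW, 3 TH; the shape gives the sow's number), the line is the breed mean and the bar the SD (n = 3). PER1 on its first probe set, PER2 and CRY2 do not overlap between the breeds, with TH sow 2 nearest to the LW sows, while the second PER1 probe set and ARNTL overlap.

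The loop was next compared within each array. The log2 signal of each gene, on its probe set of highest mean signal, was set against its own mean over the 6 arrays, and the mean over PER1, PER2 and CRY2 was taken as the repressor value. The repressor value was -0.65, -0.68 and -0.23 in LW sows 1 to 3 and 0.75, -0.04 and 0.86 in TH sows 1 to 3. The ARNTL value was -0.18, 0.28 and 0.43 in LW and -0.19, -0.77 and 0.42 in TH sows. Both values were high in TH sow 3, so a high repressor value did not always go with a low ARNTL value.

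The repressor value minus that of ARNTL was -0.47, -0.96 and -0.66 in LW sows and 0.94, 0.72 and 0.43 in TH sows. TH sow 2, in which PER1, PER2 and CRY2 lay near their means over the 6 arrays, had the lowest ARNTL signal of all. The breed means were -0.70 ± 0.25 (SD, n = 3) and 0.70 ± 0.25. Because each gene was set against its own mean over the 6 arrays, the zero of this scale and the mirrored breed means follow from the calculation. The genes were chosen on the contrast of the breeds, so the separation of the breeds is in part fixed in advance. On average the repressor value was -0.52 in LW and 0.52 in TH sows, and the ARNTL value 0.18 and -0.18.

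**Figure D2:**
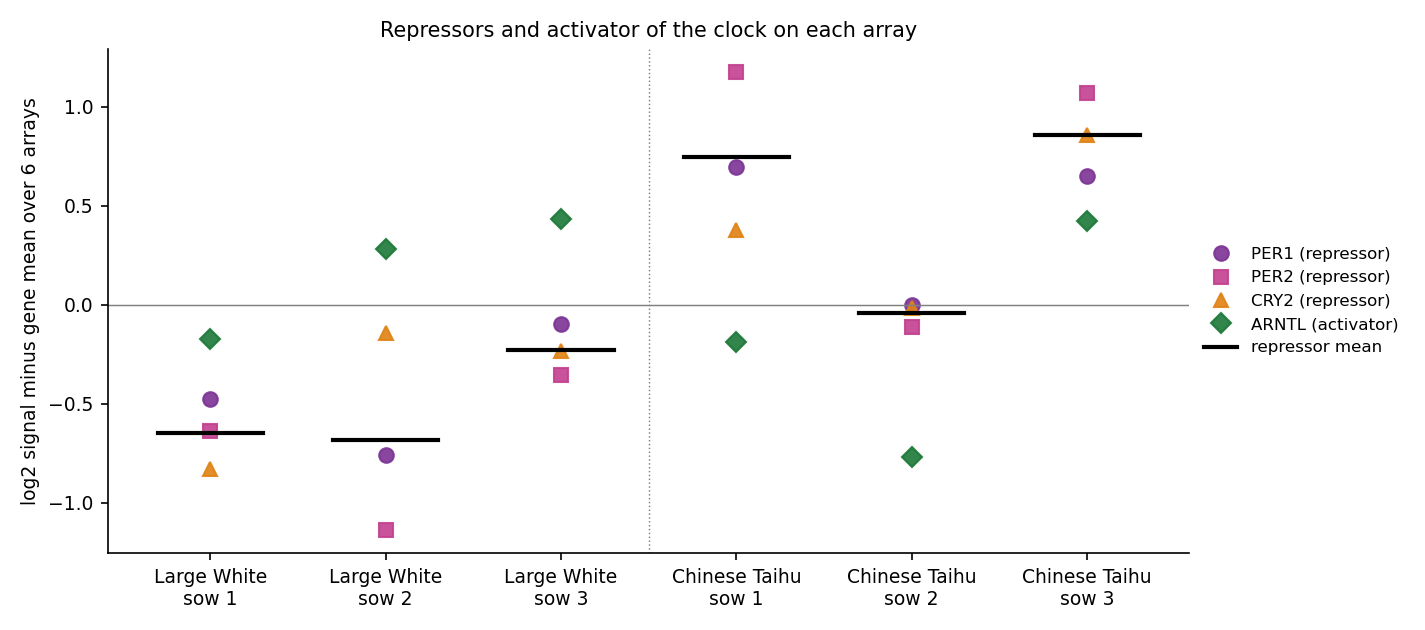
Repressors and activator on each array. The y axis is the log2 signal minus the mean of the same gene over the 6 arrays; each point is 1 gene in 1 sow and each black line the mean of PER1, PER2 and CRY2. The repressor mean minus ARNTL is -0.96 to -0.47 in the 3 LW sows and 0.43 to 0.94 in the 3 TH sows. The choice of the genes on this contrast fixes the separation in part.

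PER1, here on its first probe set, and PER2 ordered the sows alike. On all 6 arrays their ranks were the same, with TH sow 1 highest and LW sow 2 lowest. The second PER1 probe set had another order, with LW sow 1 highest and LW sow 3 lowest. Among the other 19195 tested probe sets, 585 (3.05%) had the order of sows that PER1 and PER2 had within both breeds. CRY2 ordered LW sows 2, 3, 1 and TH sows 3, 1, 2 from high to low, and the order of ARNTL was 3, 2, 1 and 3, 1, 2. Thus CRY2 and ARNTL shared the order of the TH sows alone. The sow with the highest sum of epithelium and oviduct markers in each breed, TH sow 1 and LW sow 3, was also the highest of its breed for PER1 and PER2. TH sow 3 had nearly the same PER1 (1793 against 1850) and PER2 (376 against 404) signals as TH sow 1. Its sum of these markers was 2169, against 46114 in TH sow 1. For CRY2 and ARNTL, TH sow 1 was neither highest nor lowest of its breed, while LW sow 3 was highest for ARNTL and between the others for CRY2. The part of these transcripts in the clock gene values was not tested.

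Other parts of the clock were compared in the limma fit across all probe sets, from 4 lists of 51 genes, of which 25 had a tested probe set. By limma 0 of the 25 passed an adjusted p of 0.05 in either direction, 0 had an unadjusted p of at most 0.05, and the methods' t-test gave 1 at unadjusted p (DDB1, lower). The median log2 difference was -0.02, beside 0.00 over all tested probe sets. In 1 of the 25, DDB1, the signals of the breeds were apart, lower in TH sows, as were 5.12% of all tested probe sets.

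In the core loop, 2 of 11 further genes were measured. RORA, a nuclear receptor that activates ARNTL, had signals of 72.1, 75.8 and 65.8 in LW and 35.5, 106 and 82.6 in TH sows (log2 -0.07, SE 0.40). BHLHE40, also called DEC1, which competes for E-boxes, had 320, 480 and 118 in LW and 325, 335 and 146 in TH sows (log2 -0.06, SE 0.59). RORA spread widely in TH sows alone and BHLHE40 in both breeds, and the breeds overlapped for both.

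Of the 4 output factors of the PAR-bZIP type and their antagonist, DBP and NFIL3 were measured. DBP, which the ARNTL and CLOCK dimer switches on through E-boxes, had 1029, 968 and 999 in LW and 954, 938 and 1114 in TH sows (log2 0.00, SE 0.17). Its highest signal was 1.19 times its lowest over the 6 arrays, against 4.97 times for PER2. NFIL3, the repressor that binds the same sites as DBP, had 753, 1418 and 894 in LW and 1802, 426 and 640 in TH sows (log2 -0.32, SE 0.56). The highest NFIL3 signal came from TH sow 1, and without it the difference was -0.92.

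Of 24 kinases, ligases and cofactors that act on clock proteins, 12 were measured, with a median log2 difference of -0.09. USP2, a deubiquitinating enzyme that acts on PER1 and other clock proteins, had signals of 96.1, 83.3 and 127 in LW and 576, 103 and 236 in TH sows (log2 1.26, SE 0.60, adjusted p = 0.993 by limma). TH sow 2 lay among the LW sows, and without TH sow 1 the difference was 0.63. It was the 1 gene of the 25 with the order of sows of PER1 and PER2. CSNK2B, the regulatory subunit of casein kinase 2, which phosphorylates PER2 and ARNTL, had 2135, 1781 and 1614 in LW and 1347, 1633 and 1069 in TH sows (log2 -0.46, SE 0.23, adjusted p = 0.993). DDB1, an adaptor of ubiquitin ligases, had 1169, 1271 and 1122 in LW and 1063, 875 and 866 in TH sows (log2 -0.35, SE 0.18, adjusted p = 0.993). CSNK1D, the kinase that marks PER proteins for degradation, had a log2 difference of -0.12 (SE 0.18), and its 2 other probe sets -0.15 and -0.10.

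Of 12 clock-controlled output genes, 9 were measured, with a median log2 difference of 0.12. NAMPT, the enzyme that makes the NAD precursor NMN, had 648, 569 and 794 in LW and 884, 677 and 919 in TH sows (log2 0.30, SE 0.23, adjusted p = 0.993 by limma). For KLF10, a zinc finger factor, the log2 difference was 0.15 (SE 0.19, adjusted p = 0.993 by limma). KLF9, a zinc finger factor that also responds to glucocorticoids, had 225, 496 and 899 in LW and 624, 344 and 1271 in TH sows (log2 0.48, SE 0.65). Its difference was -0.04 without LW sow 1, and 0.03 on its other probe set. KLF9 and WEE1, a kinase that holds cells before mitosis, had the order of sows of ARNTL within both breeds, as had PPP1CB, PPP1CC and NCOR1. These were 5 of the 25 genes, and 7.16% of the other tested probe sets had this order.

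**Figure D3:**
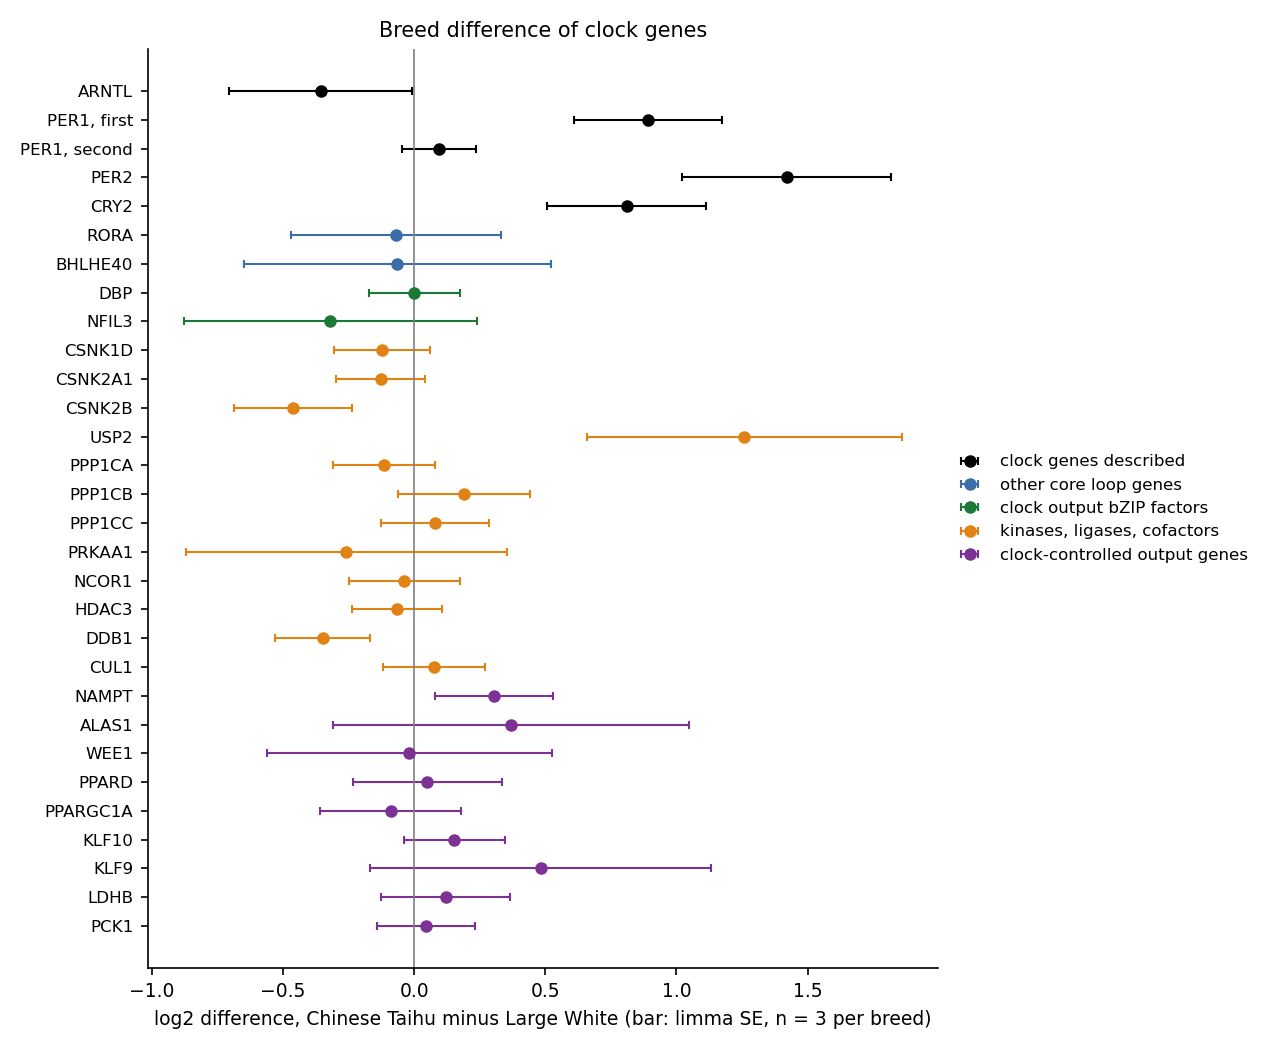
Breed difference of the 5 clock probe sets and the 25 other clock genes. The log2 difference (x axis) is TH minus LW, the points are coloured by list and the bars are the limma SE (n = 3 per breed). PER2, PER1 on its first probe set and CRY2 lie to the right (0.81 to 1.42), as does USP2 (1.26, with an SE of 0.60), while DBP, RORA and BHLHE40 lie near 0.

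Genes of the routes that are known to induce PER1 were compared in the same way. Of 11 immediate early genes of cAMP signalling, 6 were measured, and by limma 0 had an adjusted p below 0.05 and 0 an unadjusted p of at most 0.05, as by the methods' t-test (median log2 -0.38). FOS, a subunit of AP-1, had 7254, 966 and 563 in LW and 581, 1712 and 905 in TH sows, so that LW sow 1 set the mean of its breed (log2 -0.71, SE 0.97, and 0.39 without this sow). JUN, the other AP-1 subunit, had 1139, 2952 and 1574 and 1601, 679 and 1589 (log2 -0.54, SE 0.48, adjusted p = 0.993 by limma), and EGR1, a zinc finger factor, had a log2 difference of -0.81 (SE 0.85). The EGR1 signal was 4059 in LW sow 1 and 624 to 1403 in 4 of the other sows, with the lowest, 327, in TH sow 1. Its difference was 0.04 without LW sow 1 and -0.25 without TH sow 1, and its other probe sets ran from -1.46 to -0.39. Of 10 glucocorticoid responsive genes 8 were measured, again with 0 at an adjusted p below 0.05 and 0 at unadjusted p by limma and by the methods' t-test (median log2 0.17). TSC22D3, also called GILZ, had 4544, 3412 and 5183 in LW and 5459, 4969 and 7024 in TH sows (log2 0.42, SE 0.21, adjusted p = 0.993 by limma). Its other probe set had a log2 difference of 0.63. KLF15 had a log2 difference of 0.44 (SE 0.40), and HSD11B1, which regenerates active glucocorticoid, had 0.48 (SE 0.51), with its highest signal, 3382, in TH sow 1 and a difference of -0.05 without this sow.

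The transcripts most like each clock gene over the 6 arrays were sought by Pearson's r of the log2 signals, as a description of 6 arrays that share 2 breeds. PER2 was most like RPL14, a protein of the large ribosomal subunit (r = 0.998), PCK2, a mitochondrial enzyme that makes phosphoenolpyruvate (0.994), and LOC100621476 (0.994). PER1 had LOC100621476 and RPL14 (0.987 each) and DOPEY1 (0.986). The RPL14 probe set had 7268, 6833 and 7565 in LW and 9698, 7990 and 9661 in TH sows, the same order as PER2 but a much smaller span. CRY2 was most like CD38, an enzyme that breaks down NAD (0.991), LOC100522498 (0.979) and BRCC3 (0.966). ARNTL was most like ZNF106 (0.995), RANBP3 (0.992) and SYNCRIP, an RNA-binding protein (0.987). Of 19195 probe sets, 180 had r of at least 0.9 with PER2, 217 with PER1, 147 with CRY2 and 203 with ARNTL.

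**Figure D4:**
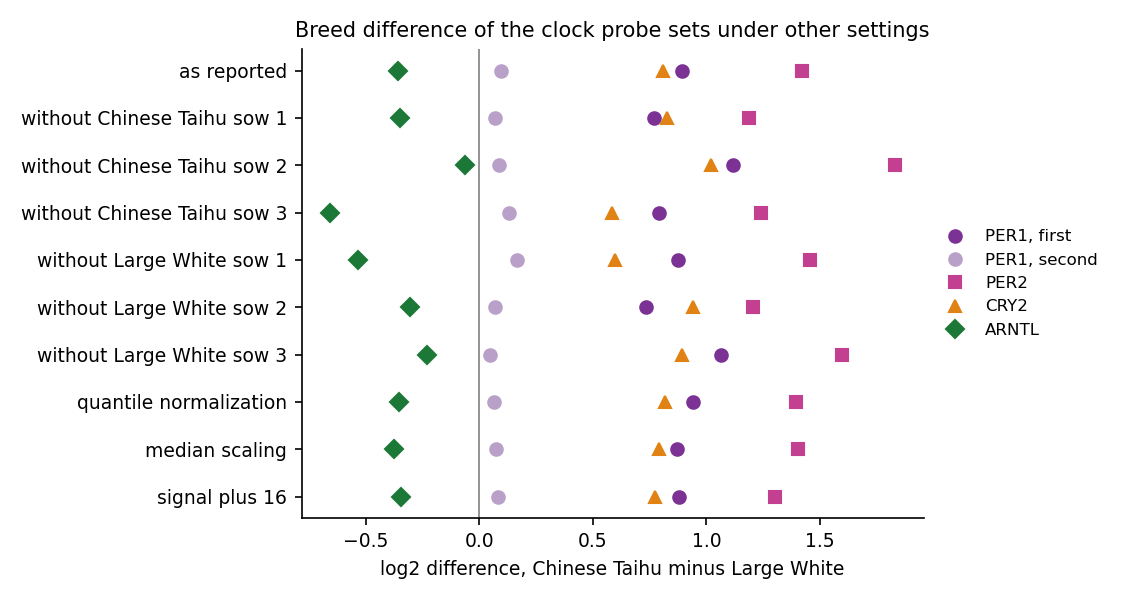
Log2 difference, TH minus LW, of the 5 clock probe sets as reported, with each array left out in turn, and with other scalings or an offset. PER2 stays between 1.19 and 1.83, PER1 on its first probe set between 0.73 and 1.12 and CRY2 between 0.58 and 1.02, while ARNTL runs from -0.66 to -0.06.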

How the data were processed

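RNA of each sow was hybridized to 1 Affymetrix porcine array. The authors made the deposited signal intensity of each probe set with MAS 5.0 (MAS5 2.3.1 in the submitters' processing notes) from perfect match and mismatch probes, scaled it to a common target and normalized the arrays with the invariant set of dChip. Arrays were grouped by the breed in the labels. The 23935 probe sets that are not controls were filtered as in the study's methods (signal above 50 on at least 3 arrays; 19196 remained), floored at 1 and taken to log2. Breed was fitted in limma 3.58.1 under R 4.3.3 (trended prior variance, 2-sided tests), with adjustment by Benjamini and Hochberg over all 19196; the fit was tested on simulated data. Figures were drawn with matplotlib 3.10.9 in Python 3.11.15.

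Symbols came from the probe table (10099 probe sets with 1 symbol, 198 with several, 13826 with none; 0 differed from the RefSeq gene table). A listed gene was represented by its tested probe set of highest mean log2 signal. The genes and lists were chosen with earlier results of these data known. All clock probe sets are named. Of each other list the 3 genes with the smallest limma p and any with an unadjusted p of at most 0.05 are named. Other clock genes were chosen after their values were seen (CSNK1D, WEE1, PPP1CB, PPP1CC, NCOR1, PRKAA1). So were other cell type markers (INHBA, CYP19A1, FOXL2, FST, NR5A2, LHCGR, HSD17B1, STAR, PTPRC, CD3E, CLDN5, GDF9, ZP2). For each clock gene, the 3 genes of highest Pearson's r are named. Marker lists of 7 cell types were summed per array. Alternatives were quantile and median scaling, other filters, an offset of 16, a constant prior variance, array weights, the methods' t-test, a replicate block, each array left out, and other probe set choices. Motifs in promoters were planned and not run. RT-PCR and genotype data were not used here.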

Additional observations from a re-analysis of the deposited data

How the results depend on the processing

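Over all tested probe sets limma called 0 higher and 4 lower in TH sows at an adjusted p below 0.05 and 741 at an unadjusted p of at most 0.05. Array weights gave 4, 7 and 1303. The replicate block and the methods' t-test each left 0 lower calls. With each array left out in turn the lower calls ran from 0 to 4 and the unadjusted count from 351 without LW sow 2 to 1215 without TH sow 2. The cause was not tested. Of the 61 values of the 5 clock probe sets under alternatives, 0 changed sign (which the choice of the genes by this contrast fixes in part). Of the 61, 60 moved by less than 1 SD between sows. The exception was PER1 at 0.49 with its 2 probe sets averaged, which follows from the flat probe set. Leaving out 1 of 3 sows can hardly move a breed mean by 1 SD. Other filters and the replicate block leave the difference unchanged, so these counts are no measure of stability. With PER1 and PER2 alone as repressors, the value of LW sow 2 was -1.23. Of the 25 other clock genes, the count at unadjusted p was 3 with array weights (CSNK2B and DDB1 lower, USP2 higher) and 1 by the methods' t-test (DDB1). It was 0 to 2 with an array left out: NFIL3 lower without TH sow 1, CSNK2B lower and USP2 higher without TH sow 2, and PRKAA1 lower without LW sow 1. Over all tested probe sets the count was 1303 of 19196 with array weights and 846 by the methods' t-test. With an array left out it was the 351 to 1215 given above. Nothing is read from the genes named here. The adjusted count of the 25 genes was 0 throughout. The deviations of same-numbered sows from their breed means had r = -0.17, -0.14 and 0.27 over probe sets. Pairs of unlike number ran from -0.48 to 0.51. These values cannot show whether the numbers pair the sows, and the labels name no pairs. With the replicate block the log2 difference of PER2 was 1.42 (SE 0.22). There 3 of the 5 clock probe sets had an unadjusted limma p of at most 0.05, beside 719 of all 19196 tested probe sets. With 5 arrays, 1 to 3 of the 5 had, beside the 351 to 1215 of all probe sets given above. Nothing is read from these counts, since the genes were proposed from the same contrast.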

Other observations

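The lists of other cell types had the following breed differences in the limma fit, where 0 of their 49 measured genes had an adjusted p below 0.05. In the granulosa list, INHA, INHBB and AMH had log2 differences of -1.43, 0.20 and -0.60 (0.01, 0.23 and -0.35 without TH sow 1). In the theca list, CYP11A1, HSD3B1 and INSL3 had -2.43, -2.01 and -1.43, values that rest on TH sow 1 (-0.48, 0.02 and 0.26 without this sow). The other HSD3B1 probe set had -0.82. EPCAM, CLDN4 and MUC1 of the epithelium list had 1.75, 0.91 and 1.44 (0.63, 0.06 and 0.08 without TH sow 1), and TYROBP, FCER1G and LAPTM5 of the leukocyte list had -0.81, -0.60 and -0.36, with the highest signal of all 3 in LW sow 2. The other MUC1 probe set had 0.90. PTPRC and CD3E of the leukocyte list had 0.04 and 0.07. The summed signal of 7 endothelium markers was 4887 to 5741 in LW and 5336 to 5943 in TH sows, with FLT1, KDR and TEK at 0.31, 0.31 and 0.38. CLDN5 of this list was at -0.13, and the other TEK probe set was at 0.13. The other FLT1 probe sets went the opposite way, from -0.35 to -0.06. The sum of 5 oocyte markers was 616 to 900 and 711 to 1001, with ZP4, BMP15 and ZP3 at 0.20, 0.12 and 0.18. GDF9 and ZP2 of this list were at -0.09 and -0.03. Of the red blood cell markers, HBB and ALAS2 were measured, with log2 differences of 0.50 and 0.74, and ALAS2 was the 1 gene of these lists with an unadjusted limma p of at most 0.05 (by the methods' t-test, 1 as well, FLT1). The sum of HBB and ALAS2 was 437 to 638 in LW and 612 to 819 in TH sows, the same direction as PER1, PER2 and CRY2. Its part in their values was not tested.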
